A study of Rattus norvegicus with 9 samples.

Results

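The comparison described here set tissue labelled as adipose from diabetic rats given black bean extract (BB) against that of diabetic rats without it (DB), gene by gene. Its members were the genes with a mean value of at least 1 in either group, which were 32202 of the 32883 genes listed when all 6 libraries were used and 32273 when BB replicate 8 was left out. All animals were male Wistar rats of wild type genotype, and their age is not given in the sources used here. Rats of both groups were fed a high fat diet and received a single injection of streptozotocin (25 mg/kg), a toxin of the insulin-producing beta cells, so the diet and the toxin are common to both arms. BB rats were then given the extract (260 mg/kg per day) and DB rats were given water by gavage, and tissue was taken on day 31. The libraries of healthy rats (HE) are used here only for values given side by side and in an alternative fit. HE rats ate a standard diet, were injected with buffer without streptozotocin and were given no extract. They therefore differ from BB and DB rats in both diet and toxin.

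Retroperitoneal adipose tissue stores triglyceride and releases it as fatty acids, under the control of insulin, catecholamines and natriuretic peptides. In insulin resistance the glucose carrier of the adipocyte, Slc2a4, responds less to insulin, macrophages enter the tissue and inflammatory messengers such as Tnf are made. Black beans are rich in anthocyanins, polyphenols that are conjugated by enzymes and exported by carriers such as Abcc2. The question of the comparison was which genes of the diabetic fat pad differ when the extract is given.

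The 6 libraries did not form a set of 3 against 3. The values are reads per gene divided by 1 size factor per library, and undoing that factor gave whole reads for 100% of the values. BB replicates 1 and 4 and the DB libraries held 2771967 to 3373400 reads, and 1 read was worth a value of 0.747 to 0.913. BB replicate 8 held 12267084 reads, 1 read was worth 14.6, and 47.4% of all listed genes were at 0 in it, against 2.20% to 2.58% in the other libraries of the comparison. On the log2(value + 1) scale its correlation across genes was r = 0.577 and 0.580 with the other BB libraries and 0.585 to 0.589 with the DB libraries. BB replicates 1 and 4 correlated at 0.961, the DB libraries with each other at 0.959 to 0.964, and the 5 remaining libraries of both groups across the groups at 0.958 to 0.965. Without BB replicate 8, libraries of the same group were thus about as alike as libraries of different groups. The comparison was made with BB replicate 8 (6 libraries, 3 against 3) and without it (5 libraries, 2 against 3). A fold change of a gene that is given only once is the one without BB replicate 8. That each library is a separate animal rests on the rat numbers in the titles alone, so the p-values speak of the spread among libraries, which may be technical.

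All 16 adipocyte genes had reads in BB replicates 1 and 4 and in the DB libraries, while 7 of the 16 were at 0 in BB replicate 8. The presence of reads says little about cell type here, since 2.20% to 2.58% of all listed genes were at 0 in those 5 libraries. Adiponectin (Adipoq), the most specific adipocyte hormone, had values of 58.4, 69.3 and 0 in BB replicates 1, 4 and 8, and of 71.2, 66.4 and 65.8 in DB replicates 1, 2 and 6. Leptin (Lep) had 212, 167 and 58.5 in BB, against 194, 233 and 156 in DB. Fabp4, a fatty acid carrier that is abundant in adipocytes, had 10.1, 12.1 and 0 in BB, against 14.6, 8.10 and 13.5 in DB. The median gene tested had values of 31.9 and 31.4 in BB replicates 1 and 4, and of 31.6 to 32.1 in the DB libraries. These values are not corrected for gene length, so levels of different genes were not compared. The tissue rests on the sample labels, which say adipose tissue. The value columns carry the group and rat numbers of the sample titles but end in H where the titles end in TA, so whether the values come from the labelled tissue is not settled, and neither adipocyte markers nor hepatocyte markers such as albumin (Alb) were absent. In bulk tissue, fewer cells of a type and less RNA per cell cannot be told apart.

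With all 6 libraries, no gene passed the test between the groups. Of the 32202 genes, 0 (0%) had an adjusted p of at most 0.05 in limma, the moderated linear model used throughout, with Benjamini-Hochberg adjustment over all genes tested. Under the unadjusted threshold of 0.05 there were 10 genes higher in BB (0.0311%) and 167 lower (0.519%), 177 in all, and the count tests edgeR, DESeq2 and limma-voom, run on the whole reads, also called 0. Over all genes the log2 fold change had a median of −0.52, and 707 genes (2.20%) had every BB value above every DB value, while 2304 (7.15%) had every BB value below. Without BB replicate 8 that median was −0.0034, and 5 of 32273 genes (0.0155%) passed. At the unadjusted threshold there were then 632 genes higher in BB (1.96%) and 876 lower (2.71%), and the BB and DB values did not overlap for 2926 genes higher in BB (9.07%) and 3401 lower (10.5%). The median half-width of the 95% interval of a log2 fold change was 1.96 with BB replicate 8 and 0.49 without it, and it was under 1, the size of a 2-fold change, for 15.4% of genes with it and for 85.1% without it.

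**Figure D1:**
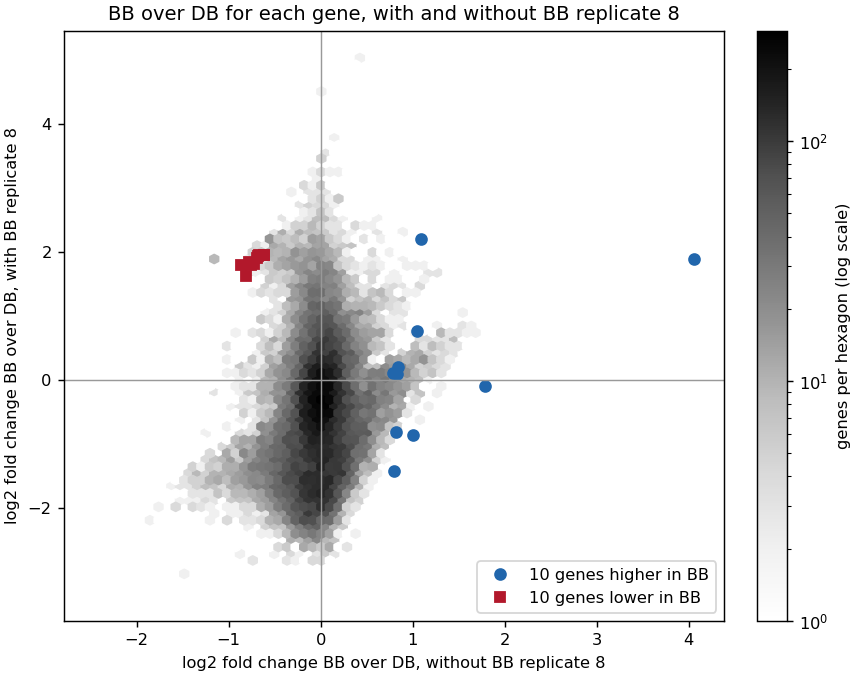
Log2 fold change of BB over DB for each gene tested, without BB replicate 8 on the horizontal axis and with it on the vertical axis, as counts of genes per hexagon on a log scale. Circles are the 10 genes higher in BB and squares the 10 genes lower in BB with the smallest p-values without BB replicate 8, and all 10 squares lie below 0 on the horizontal axis and between 1.63 and 1.96 on the vertical axis.

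Alb, Krt78 and Tm7sf2 were higher in BB rats once BB replicate 8 was left out. Alb, the gene of the main plasma protein, had values of 438 and 501 in BB replicates 1 and 4, against 263, 251 and 283 in DB. Both BB values lay above all DB values, and the log2 fold change was 0.82 (SE 0.12, 95% interval 0.57 to 1.07, limma adjusted p = 0.0348). BB replicate 8 had a single read of Alb, a value of 14.6 that lies below every other library, and with it the log2 fold change was −0.82 (95% interval −4.13 to 2.49, limma adjusted p = 0.733). The HE libraries had 486, 738 and 541, so BB replicates 1 and 4 were nearer to them than the DB libraries were.

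Krt78, a keratin of stratified epithelia, had 95.0, 122 and 1112 in BB replicates 1, 4 and 8, against 50.2, 53.4 and 47.1 in DB. Here BB replicate 8 was on the same side as the others, and the groups did not overlap with or without it. The log2 fold change was 1.09 without it (SE 0.17, limma adjusted p = 0.0475) and 2.21 with it (SE 0.95, limma adjusted p = 0.670). The other 9 stratified epithelium markers analysed here had log2 fold changes without BB replicate 8 of −0.36 to 0.08, none of them passed, and the list had a median of −0.04. With BB replicate 8 the median of the list was −0.13.

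Tm7sf2, a sterol reductase of cholesterol synthesis, had 284 and 271 in BB replicates 1 and 4, against 165, 133 and 170 in DB. The log2 fold change was 0.84 without BB replicate 8 (SE 0.13, limma adjusted p = 0.0484). BB replicate 8 had 73.2, which stands for 5 reads and is lower than any DB value, and with it the log2 fold change was 0.20 (95% interval −1.22 to 1.63, limma adjusted p = 0.841). In the HE libraries Tm7sf2 had 227, 62.6 and 215, so BB replicates 1 and 4 lay above all HE values and the DB values lay within the HE range.

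Isl2 and Atg10 were lower in BB rats once BB replicate 8 was left out. Isl2, a homeobox transcription factor of motor neurons, had 363 and 399 in BB replicates 1 and 4, against 667, 803 and 624 in DB, a log2 fold change of −0.87 (SE 0.13, limma adjusted p = 0.0348). Atg10, an enzyme that helps to conjugate Atg12 to Atg5 in autophagy, had 130 and 155 in BB, against 236, 276 and 244 in DB, a log2 fold change of −0.82 (SE 0.13, limma adjusted p = 0.0484). In both genes the BB values lay below all DB values. BB replicate 8 had 96290 for Isl2, 138 times the DB mean, and 23224 for Atg10, 92.2 times the DB mean. With it, the log2 fold change was 1.79 for Isl2 (95% interval −3.73 to 7.32, limma adjusted p = 0.678) and 1.63 for Atg10 (95% interval −3.29 to 6.56, limma adjusted p = 0.676). In HE replicates 2, 3 and 4, Isl2 had 347, 686 and 337, and Atg10 had 124, 216 and 114. HE replicates 2 and 4 thus lay below BB replicates 1 and 4 in both genes. HE replicate 3 lay among the DB values for Isl2 and between the groups for Atg10.

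**Figure D2:**
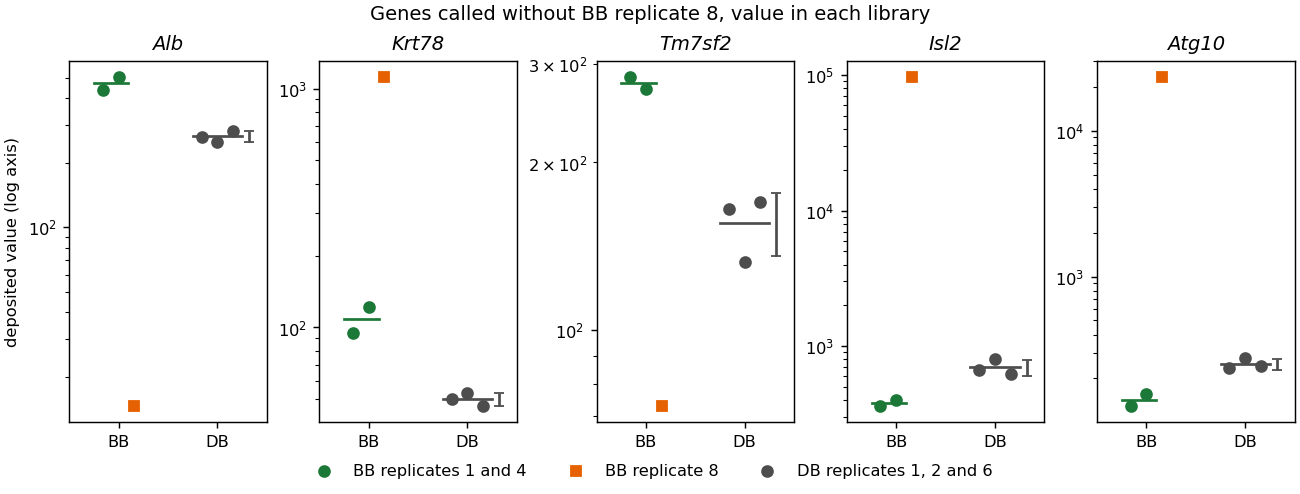
Deposited value of the 5 genes that passed without BB replicate 8, in each BB library (left) and each DB library (right), on log axes that differ between genes. Horizontal lines are the mean of BB replicates 1 and 4 and the mean of the DB libraries, and the bar beside DB is 1 SD (n = 3). Circles of the groups do not overlap, while the square of BB replicate 8 lies below DB for Alb and Tm7sf2 and far above DB for Krt78, Isl2 and Atg10.

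These 5 calls depended on the libraries and on the test. Leaving out 1 more library gave 0 calls without DB replicate 1, 0 without DB replicate 6, 15 without DB replicate 2, 12 without BB replicate 1 and 11 without BB replicate 4. A pseudocount of 0.1, a minimum of 10 reads in every library, a gene by gene linear model and a fit that included the HE libraries each gave 0. In the settings with 0 calls, 1106 to 1605 genes were under the unadjusted threshold. On the recovered reads of the 5 libraries, edgeR called 6 genes (4 higher and 2 lower), limma-voom 43 (5 higher and 38 lower) and DESeq2 57 (3 higher and 54 lower). Alb, Tm7sf2 and Isl2 were the 3 genes called by all 4 tools, a set named after these values were seen.

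The promoters of the 3 higher genes are shown because these genes passed in the same direction, and because Alb is a textbook target of the liver factor HNF1 and of factors that bind CCAAT boxes. The sequences are from RefSeq (GRCr8) and run from 250 bases before the start of the gene to 50 bases after it, and capitals mark matches on either strand. The motifs searched were the CCAAT box, spelled CCAAT, which reads as ATTGG when it lies on the opposite strand. They also included the HNF1 motif, spelled GTTAAT. The last motif was the TATA box, spelled TATAAA.
Alb promoter, chr14:17906930-17907229, minus strand: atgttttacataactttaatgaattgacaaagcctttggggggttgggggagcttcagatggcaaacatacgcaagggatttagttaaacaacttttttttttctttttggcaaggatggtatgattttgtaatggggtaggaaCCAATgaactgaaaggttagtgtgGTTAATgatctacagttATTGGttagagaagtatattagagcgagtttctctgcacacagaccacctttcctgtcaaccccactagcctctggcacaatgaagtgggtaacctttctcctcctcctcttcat
Krt78 promoter, chr7:134960678-134960977, minus strand: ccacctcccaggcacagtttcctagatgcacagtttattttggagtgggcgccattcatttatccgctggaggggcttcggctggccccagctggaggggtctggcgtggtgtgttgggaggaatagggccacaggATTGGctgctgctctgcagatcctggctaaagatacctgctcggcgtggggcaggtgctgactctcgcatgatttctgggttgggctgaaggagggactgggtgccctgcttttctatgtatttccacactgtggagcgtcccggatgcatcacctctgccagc
Tm7sf2 promoter, chr1:212789492-212789791, minus strand: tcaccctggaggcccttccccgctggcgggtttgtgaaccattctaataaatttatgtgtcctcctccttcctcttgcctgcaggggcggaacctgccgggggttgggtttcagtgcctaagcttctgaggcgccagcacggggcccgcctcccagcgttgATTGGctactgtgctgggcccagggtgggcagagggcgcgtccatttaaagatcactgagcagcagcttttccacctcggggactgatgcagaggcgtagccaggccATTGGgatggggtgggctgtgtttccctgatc
The Alb window held the CCAAT box 2 times and the HNF1 motif 1 time, the Krt78 window held the CCAAT box 1 time and the Tm7sf2 window held it 2 times. The CCAAT box occurs in 37.5% of all 33469 promoter windows, the HNF1 motif in 7.45% and the TATA box in 14.2%. Of the 2 lower genes, Isl2 held the CCAAT box 2 times and Atg10 held none of the motifs in its window. These matches describe the letters in the windows and were not tested for factor binding.

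Behind these 5 genes, the genes with the smallest p-values that were higher in BB without BB replicate 8 included 3 copies of the 7SK RNA gene, RF00100.35, RF00100.309 and RF00100.190. RF00100.35 had 74.7, 68.4 and 14.6 in BB, against 32.9, 40.5 and 47.1 in DB (log2 fold change 0.83 without BB replicate 8, SE 0.19, limma adjusted p = 0.229), and the other copies had limma adjusted p-values of 0.283 and 0.294. The other 4 were a mixed group. AABR07031158.1, named after its genomic clone, had 35.8 and 64.4 in BB replicates 1 and 4, against 17.3, 10.5 and 12.7 in DB (log2 fold change 1.78, SE 0.30, limma adjusted p = 0.0561), and no reads in BB replicate 8. Hcrt, the precursor of the orexin neuropeptides, had 94.2 and 178 in BB, against 52.0, 76.1 and 61.3 in DB (log2 fold change 1.04, SE 0.22), and 73.2 in BB replicate 8, which overlaps the DB values. Tfap2a, a transcription factor of epithelial and neural crest cells, had 108 and 90.2 in BB, against 66.7, 45.3 and 59.8 in DB (log2 fold change 0.79, SE 0.18), and no reads in BB replicate 8. AABR07062535.1 varied widely among the DB libraries, with 108 and 72.5 in BB, against 0, 47.0 and 2.24 in DB. Hcrt, Tfap2a and AABR07062535.1 had limma adjusted p-values of 0.153, 0.223 and 0.229 without BB replicate 8.

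The 10 genes with the smallest p-values that were lower in BB had a feature in common that their choice did not use. Besides Isl2 and Atg10 they were Czib, Srpk1, a kinase of splicing factors, Gramd4, Fam189a2, Spsb2 and 3 genes with LOC names. Czib had 314 and 264 in BB replicates 1 and 4, against 492, 568 and 438 in DB (log2 fold change −0.78, SE 0.13, limma adjusted p = 0.0561). Srpk1 had 374 and 342 in BB, against 589, 639 and 516 in DB (log2 fold change −0.69, SE 0.12, limma adjusted p = 0.0780). In BB replicate 8 these 2 genes had values of 68281 and 79052, and the 10 genes had 92.2 to 148 times their DB mean there. Czib and Srpk1 had log2 fold changes of 1.84 and 1.90 with BB replicate 8. LOC103690068 and LOC100361913 had nearly the same values in each library, as had Spsb2 and LOC100911548, so each such pair may count the same reads and is uncertain as 2 genes.

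Genes with high values in BB replicate 8 were also found beyond these 10. Their share was larger among genes lower in the other BB libraries than over all genes, while among the higher genes it was near that of all genes. Of all genes tested without BB replicate 8, 6.80% had a value in it of over 10 times the DB mean. Of the 876 genes lower in BB replicates 1 and 4 at the unadjusted threshold, 248 did (28.3%), and of the 632 higher genes 42 did (6.65%). Of the genes that DESeq2 and limma-voom called lower in BB without this library, 54 of 54 and 38 of 38 did, and the 38 were all among the 54. Many of these entries count the same reads again, and the 54 held 45 and the 38 held 29 different sets of reads over the 9 libraries. The 42 higher genes included AABR07015078.2, AABR07063425.3 and AABR07015067.1, which had log2 fold changes of 0.43, 0.44 and 0.41 without BB replicate 8 (limma adjusted p = 0.927, 0.837 and 0.955) and values of 7910030, 7617500 and 7910030 in it. BB replicate 8 entered none of these calls. Whether the same source of reads lies behind both was not tested.

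The clone-named genes AABR07015080.2 and AABR07000398.1, which had many reads, shared the pattern of Isl2. BB replicates 1 and 4 lay below all DB libraries, and BB replicate 8 far above them. AABR07015080.2 and 4 genes with the same reads in all 9 libraries had 47593 and 54184 in BB replicates 1 and 4 and 16013182 in BB replicate 8, against 71300, 85203 and 73642 in DB (log2 fold change −0.59 without BB replicate 8, SE 0.28, limma adjusted p = 0.999). AABR07000398.1 had 14441, 14142 and 3670321 in BB, against 23387, 25251 and 22472 in DB (log2 fold change −0.73 without BB replicate 8, SE 0.20, limma adjusted p = 0.501). In HE replicates 2, 3 and 4, AABR07015080.2 had 41024, 66478 and 34027, and AABR07000398.1 had 10223, 16219 and 7457. These 2 genes did not pass in limma, while on the recovered reads of the 5 libraries DESeq2 and limma-voom called both lower (adjusted p = 0.00398 and 0.00951 for AABR07015080.2, 3.4e-05 and 0.000985 for AABR07000398.1) and edgeR called AABR07000398.1 lower (adjusted p = 0.0239). Per 10000 of the value of AABR07015080.2, Gramd4 stood at 127, 127 and 93.3 in BB replicates 1, 4 and 8, against 136, 139 and 131 in DB. On that scale Isl2 stood at 76.2, 73.6 and 60.1 in BB, against 93.6, 94.3 and 84.7 in DB, and Atg10 at 27.3, 28.7 and 14.5 in BB, against 33.0, 32.4 and 33.1 in DB. These were the 3 of the 10 lower genes whose BB replicates 1 and 4 stayed below all DB libraries on that scale, while the other 7 overlapped DB. For example, Czib stood at 65.9 and 48.7 in BB replicates 1 and 4, against 69.0, 66.6 and 59.5 in DB. By value, BB replicate 8 thus stood at 92.2 to 144 times the DB mean in Gramd4, Isl2 and Atg10, while relative to AABR07015080.2 it stood below all DB libraries in each of the 10 genes.

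**Figure D3:**
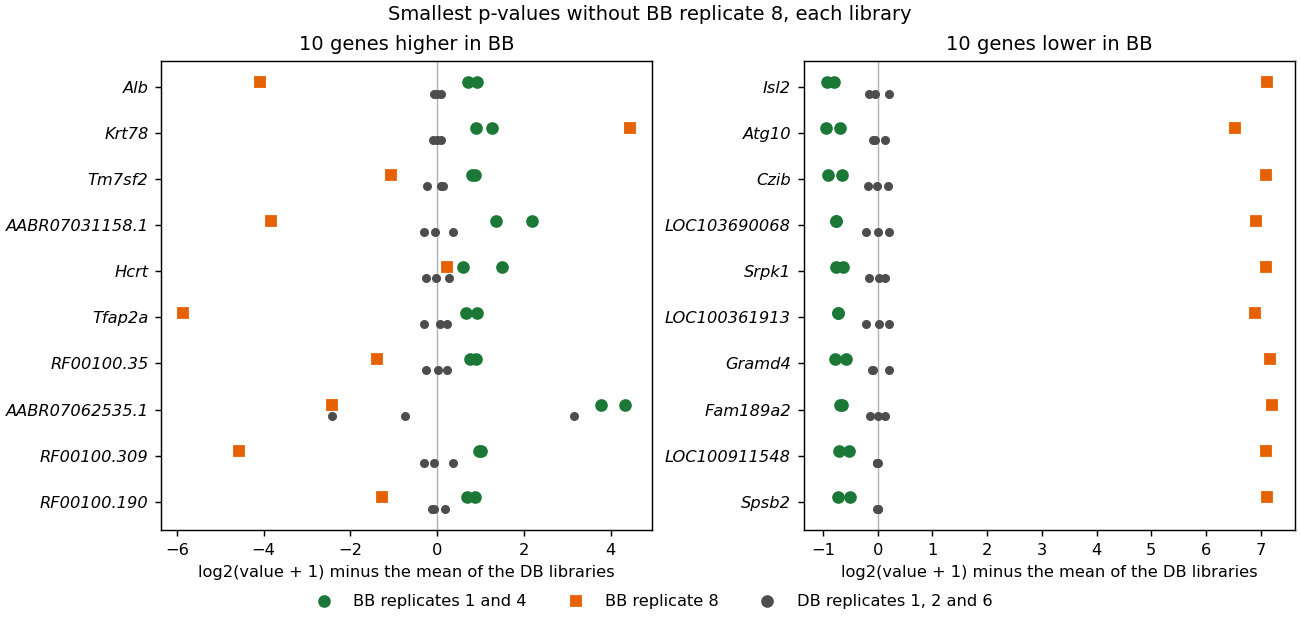
The 10 genes higher in BB (left) and the 10 lower in BB (right) with the smallest p-values without BB replicate 8, as log2(value + 1) minus the mean of the DB libraries, 1 point per library. In the right panel BB replicates 1 and 4 lie left of DB for each gene and BB replicate 8 lies far to its right, while in the left panel BB replicate 8 is spread over both sides.

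Among genes of the fat cell itself, none passed the test between BB and DB. Over 349 genes from lists of adipose, diabetes and cell type genes, 2 passed without BB replicate 8 (Alb and Krt78) and 0 with it. At the unadjusted threshold, 13 were higher in BB (3.72%, beside 1.96% of all genes) and 10 lower (2.87%, beside 2.71% of all genes). Their median log2 fold change was 0.01, beside −0.0034 over all genes, and their median half-width of the 95% interval was 0.36. With BB replicate 8 the median was −0.38, beside −0.52 over all genes, and the half-width was 1.61.

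Of 16 adipocyte genes, 5 had a log2 fold change above 0 and the median was −0.06 without BB replicate 8 and −0.77 with it, where 7 of the 16 had no reads. Slc2a4, the insulin-responsive glucose carrier, had 154, 139 and 58.5 in BB, against 99.5, 141 and 99.4 in DB. BB replicate 4 and DB replicate 2 overlapped, and the log2 fold change was 0.39 without BB replicate 8 (95% interval 0.05 to 0.72, limma adjusted p = 0.999) and −0.05 with it. Adrb3, the receptor through which catecholamines start lipolysis in rodents, had 46.7, 33.0 and 0 in BB, against 28.3, 20.2 and 31.4 in DB, a log2 fold change of 0.57 without BB replicate 8 (limma adjusted p = 0.999). With BB replicate 8 its log2 fold change was −1.21. Adipoq had a log2 fold change of −0.09 without BB replicate 8 (95% interval −0.43 to 0.25) and Lep of −0.03 (95% interval −0.36 to 0.30).

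Among 16 adipogenic transcription factors the median was 0.07 without BB replicate 8 and 0.37 with it. Pparg, the master regulator of adipogenesis, had 35.8, 51.5 and 132 in BB, against 43.8, 44.5 and 48.6 in DB. The BB values lay on both sides of DB, with a log2 fold change of −0.08 without BB replicate 8 (95% interval −0.50 to 0.34). Ebf1, an early B-cell factor that also acts in adipogenesis, had 81.8 and 83.7 in BB replicates 1 and 4, against 108, 142 and 128 in DB (log2 fold change −0.59, SE 0.15, limma adjusted p = 0.377). BB replicate 8 had 5780 for Ebf1, and with it the log2 fold change was 1.45, so this gene shares the pattern of the lower genes above.

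Lipid enzymes gave no call in either direction. The medians without BB replicate 8 were −0.03 for 16 lipolysis genes, −0.06 for 15 lipid synthesis genes and 0.06 for 14 fatty acid oxidation genes. With it they were −0.75, −0.15 and −0.26, beside −0.52 over all genes. Fasn, the fatty acid synthase, had 222, 192 and 146 in BB, against 216, 209 and 220 in DB, with the lowest value in BB replicate 8. Its log2 fold change was −0.06 (95% interval −0.32 to 0.20) without BB replicate 8 and −0.23 with it. Npr1, the receptor of natriuretic peptides, had 127, 141 and 58.5 in BB, against 162, 183 and 167 in DB. All 3 BB values lay below DB, as in 7.15% of all genes with 6 libraries, and the 58.5 in BB replicate 8 stands for 4 reads. The log2 fold change of Npr1 was −0.35 without BB replicate 8 (SE 0.13, limma adjusted p = 0.995) and −0.74 with it. Ehhadh, an enzyme of peroxisomal fatty acid oxidation, had 76.3, 67.6 and 14.6 in BB, against 55.7, 51.0 and 62.8 in DB, a log2 fold change of 0.35 without BB replicate 8 (limma adjusted p = 0.999). With BB replicate 8 its log2 fold change was −0.39. Of the 11 thermogenic genes 4 lay above 0, with a median of −0.24 without BB replicate 8, and leaving out a further library gave −0.16 to −0.09. With BB replicate 8 their median was −0.64.

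In insulin and PI3K signalling, 22 genes had a median of 0.05 without BB replicate 8 and of −0.13 with it. The insulin receptor (Insr) had 208, 234 and 73.2 in BB, against 208, 226 and 199 in DB, and its docking protein Irs1 had 260, 233 and 87.8 in BB, against 301, 295 and 239 in DB. Their log2 fold changes were 0.06 (95% interval −0.20 to 0.32) and −0.17 (95% interval −0.44 to 0.10) without BB replicate 8. Inppl1, a lipid phosphatase that acts on the product of PI3K, had 1127, 743 and 14956 in BB, against 891, 635 and 788 in DB. BB replicate 4 lay among the DB values, and the log2 fold change was 0.26 without BB replicate 8 (95% interval −0.08 to 0.60, limma adjusted p = 0.999) and 1.60 with it. Ins1, an insulin gene, had 102 and 110 in BB replicates 1 and 4, against 113, 122 and 121 in DB, and 12483 in BB replicate 8. Its log2 fold change was −0.16 without BB replicate 8 and 2.13 with it.

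Inflammatory and macrophage genes likewise gave no call. Tnf had 59.2, 68.4 and 0 in BB, against 60.3, 62.3 and 67.3 in DB, a log2 fold change of 0.01 without BB replicate 8 (95% interval −0.33 to 0.35). Il6, Il1b and Ccl2 had log2 fold changes of 0.02, 0.14 and 0.01 without BB replicate 8 and no reads in it. Medians without BB replicate 8 were 0.02 for 16 cytokines and chemokines, −0.04 for 20 NF-kB genes and −0.09 for 14 macrophage markers. With it they were −1.19, −0.46 and −1.37, beside −0.52 over all genes. Adgre1, the F4/80 macrophage antigen, had 91.1, 68.4 and 58.5 in BB, against 99.5, 120 and 105 in DB. All 3 BB values lay below all DB values, as in 7.15% of all genes with 6 libraries, and the 58.5 in BB replicate 8 stands for 4 reads. The log2 fold change of Adgre1 was −0.44 without BB replicate 8 (SE 0.16, limma adjusted p = 0.944). With it, the log2 fold change was −0.58 (limma adjusted p = 0.670), beside a median of −0.52 over all genes. Cd68, another macrophage marker, had 647 and 636 in BB replicates 1 and 4, against 593, 863 and 620 in DB, and those groups overlapped.

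Genes that handle stress and polyphenols had medians of 0.01 (18 ER stress genes), 0.02 (17 antioxidant genes) and 0.02 (17 genes of polyphenol and xenobiotic handling) without BB replicate 8. With it the medians were −0.22, −0.50 and −0.20. Nqo1, a target of the antioxidant regulator Nrf2, had 45.2, 43.5 and 14.6 in BB, against 33.8, 34.0 and 35.9 in DB, a log2 fold change of 0.35 without BB replicate 8 (95% interval −0.06 to 0.76). With BB replicate 8 its log2 fold change was −0.16. Mgst1, a membrane glutathione transferase, had 63.8, 82.9 and 0 in BB, against 52.0, 59.1 and 56.8 in DB, a log2 fold change of 0.37 without BB replicate 8 (95% interval 0.01 to 0.74, limma adjusted p = 0.999). With BB replicate 8 its log2 fold change was −1.69. Nfe2l2, which encodes Nrf2, and Hmox1, another of its targets, had log2 fold changes of −0.20 and −0.06. Xbp1, a transcription factor of the unfolded protein response, had 15.6, 9.66 and 43.9 in BB, against 19.2, 17.0 and 24.7 in DB, and the chaperone Hspa5 had 73.2, 110 and 58.5 in BB, against 83.1, 73.7 and 36.6 in DB. Xbp1 and Hspa5 had log2 fold changes of opposite sign, −0.66 and 0.55, without BB replicate 8 (limma adjusted p = 0.999 for each). With it they had −0.08 and 0.35. Abcc2, an exporter of conjugates, had 427 and 315 in BB replicates 1 and 4, against 490, 508 and 423 in DB, and 20531 in BB replicate 8. Its log2 fold change was −0.37 without BB replicate 8 and 1.57 with it.

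Matrix and clock genes included further genes with the pattern of Isl2. Col6a1, a chain of collagen VI, had 378 and 329 in BB replicates 1 and 4, against 421, 564 and 478 in DB, and 61594 in BB replicate 8. Per1, a repressor of the circadian clock, had 500 and 439 in BB replicates 1 and 4, against 512, 659 and 587 in DB, and 132846 in BB replicate 8. Their log2 fold changes were −0.45 and −0.31 without BB replicate 8 (limma adjusted p = 0.637 and 0.999), and 2.03 and 2.40 with it. Fn1, fibronectin, did not share that pattern, with 196, 211 and 132 in BB, against 173, 158 and 172 in DB, a log2 fold change of 0.28 without BB replicate 8 (limma adjusted p = 0.999).

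**Figure D4:**
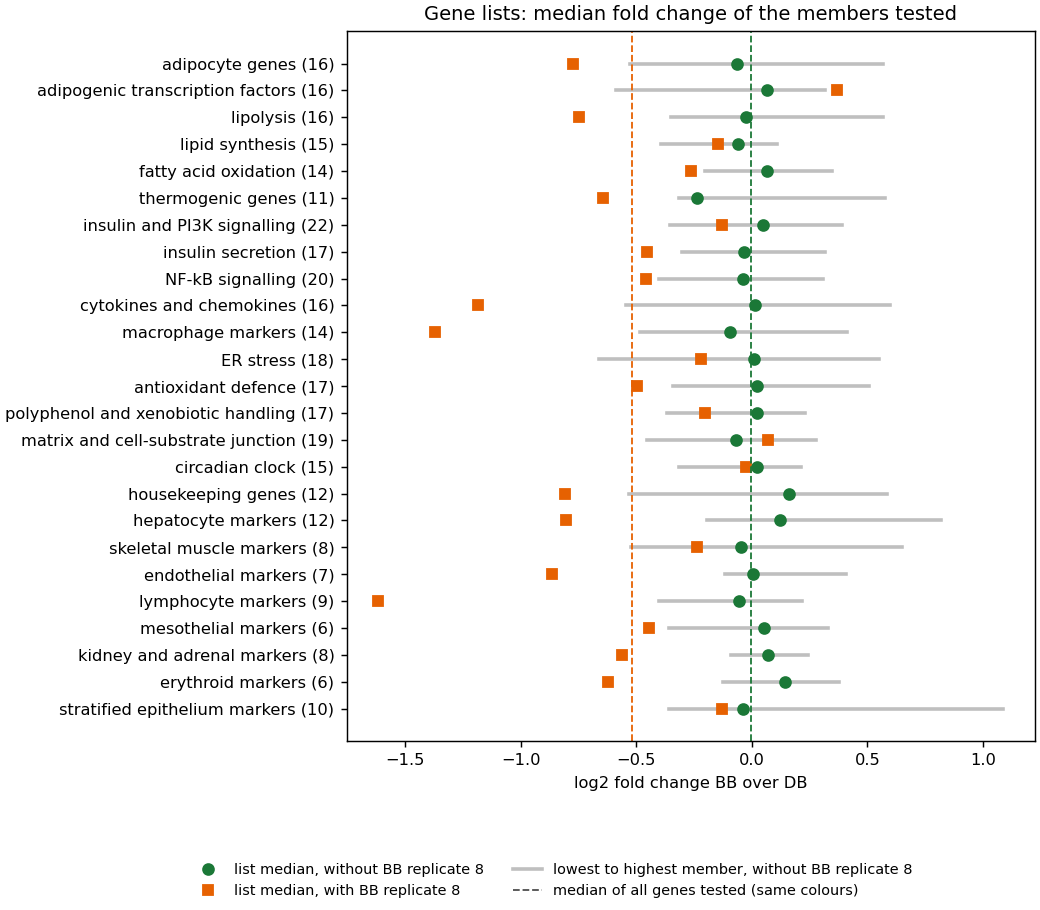
Median log2 fold change of BB over DB for each pathway and marker list, without BB replicate 8 (circles) and with it (squares), with the number of members tested in brackets. Grey bars run from the lowest to the highest member without BB replicate 8, and dashed lines are the medians over all genes tested. The circles lie between −0.24 and 0.16, while the squares reach down to −1.62 for lymphocyte markers.

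Markers of other tissues stood beside the call of Alb. Of 12 hepatocyte markers, 8 were above 0 without BB replicate 8, with a median of 0.12, and the groups did not overlap for 6, each higher in BB (Alb, Tf, Cps1, Cyp2e1, Apob and Fgb), beside 9.07% of all genes. With BB replicate 8, 0 of the 12 lay above 0, the median was −0.80, and the groups overlapped for all 12. Tf, transferrin, had 389, 410 and 132 in BB, against 327, 303 and 308 in DB, a log2 fold change of 0.35 without BB replicate 8 (limma adjusted p = 0.796). The summed value of the 12 markers was 2074 and 2099 in BB replicates 1 and 4, against 1706 to 1731 in DB, and 527 in BB replicate 8. Among these, Alb made up the larger part of the difference, and Apoa1 and Ttr, which are defining markers of hepatocytes, overlapped between the groups, with Apoa1 at 31.9 and 38.7 in BB replicates 1 and 4, against 32.0, 41.3 and 28.4 in DB. Their part in the call of Alb was not tested. The summed values of the skeletal muscle, mesothelial and lymphocyte markers in BB replicates 1 and 4 were 391 to 408, 354 to 371 and 501 to 561, against 389 to 393, 328 to 368 and 536 to 643 in DB, and those of each list overlapped. The endothelial and the kidney and adrenal sums overlapped as well. The erythroid sum was 542 and 606 in BB replicates 1 and 4, against 521 to 534 in DB, and the stratified epithelium sum, which holds Krt78, was 646 and 652 in BB, against 589 to 619 in DB. In these 2 lists, as in the hepatocyte list, BB replicates 1 and 4 lay above all DB libraries. The housekeeping sum did so too, with 842 and 846 in BB, against 720 to 768 in DB. So did the fatty acid oxidation and the insulin and PI3K sums. The macrophage sum lay below, with 1844 to 1896 in BB, against 1901 to 2237 in DB, as did the thermogenic sum. Separated sums were thus not particular to markers of other tissues. Of the 10 stratified epithelium markers, 4 had a log2 fold change above 0 without BB replicate 8, and their median was −0.04. Krt78, already called from these values, had 95.0 and 122 in BB replicates 1 and 4, against 47.1 to 53.4 in DB. It was the only marker of that list whose groups did not overlap without BB replicate 8. With Krt78 taken out, the sums of BB replicates 1 and 4 overlapped those of DB. The stratified epithelium sum thus adds nothing to the call of Krt78.

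The 12 housekeeping genes had a median of 0.16 without BB replicate 8, and 11 of them lay above 0. With BB replicate 8 their median was −0.81, and 4 lay above 0. Eef1a1, a translation elongation factor, had 49.8, 42.7 and 0 in BB, against 33.8, 25.9 and 32.1 in DB, a log2 fold change of 0.58 without BB replicate 8 (SE 0.21, limma adjusted p = 0.948). With BB replicate 8 its log2 fold change was −1.27. Leaving out a further library or using another scaling gave list medians of 0.11 to 0.24. The 65 ribosomal protein genes, a list added after the data were seen, had a median of −0.01 without BB replicate 8, with 31 above 0. With that library their median was −0.87, with 17 above 0.

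The miRNA genes were measured as reads over the gene in libraries of fragmented cDNA, so the mature arms were not measured separately. Of 61 miRNA genes with a mean of at least 10 reads over the 5 libraries, 23 lay above 0, the median was −0.12, and 43 had no reads in BB replicate 8. With that library 15 of the 61 lay above 0 and the median was −1.10. No miRNA gene passed, and at the unadjusted threshold 2 of the 61 were higher in BB and 2 lower, beside 1.96% and 2.71% of all genes. The mature sequences (RefSeq, GRCr8) of the miRNA genes with the smallest p-values are given with the seed, bases 2 to 8, in capitals, because the seed sets which messengers a miRNA can pair with.
rno-miR-98-5p: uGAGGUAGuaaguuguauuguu
rno-miR-98-3p: cUAUACAAcuuacuacuuucc
rno-miR-3569: gGAGGACAgcagacucagguc
rno-miR-129-5p: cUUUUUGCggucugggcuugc
rno-miR-129-2-3p: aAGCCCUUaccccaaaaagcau
rno-miR-23b-3p: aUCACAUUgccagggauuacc
rno-miR-23b-5p: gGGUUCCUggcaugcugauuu
rno-miR-324-5p: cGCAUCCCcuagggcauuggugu
rno-miR-324-3p: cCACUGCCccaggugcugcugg
Mir98, whose 5p arm carries the seed of the let-7 family, had 22.6 and 31.4 in BB replicates 1 and 4, against 20.1, 12.1 and 11.2 in DB, a log2 fold change of 0.88 (SE 0.31, limma adjusted p = 0.907), and no reads in BB replicate 8. With BB replicate 8 its log2 fold change was −0.72. Mir3569 had 19.5, 29.8 and 14.6 in BB, against 13.7, 17.0 and 12.0 in DB, a log2 fold change of 0.74 without BB replicate 8 (limma adjusted p = 0.999). Mir1251, the next in order, had 34.3 and 41.1 in BB replicates 1 and 4, against 17.3, 38.1 and 25.4 in DB, and those groups overlapped. Among the lower ones, Mir129-2 had 27.3 and 25.8 in BB, against 37.4, 51.8 and 29.9 in DB, and 4610 in BB replicate 8. Mir23b had 10.9, 9.66 and 0 in BB, against 15.5, 21.9 and 14.9 in DB, and Mir324 had 11.7, 8.05 and 14.6 in BB, against 16.4, 13.0 and 18.7 in DB. Their log2 fold changes without BB replicate 8 were −0.53, −0.69 and −0.65 (limma adjusted p = 0.999 for each).

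The miRNA genes that the study names for this comparison are shown with their sequences for the same reason.
rno-miR-615: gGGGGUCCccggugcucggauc
rno-miR-152-3p: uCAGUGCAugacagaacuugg
rno-miR-152-5p: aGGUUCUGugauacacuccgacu
rno-miR-219a-1-3p: aGAGUUGCgucuggacgucccg
rno-miR-384-5p: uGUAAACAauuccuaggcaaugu
rno-miR-384-3p: aUUCCUAGaaauuguucacaau
Mir615 had 103, 167 and 29194 in BB, against 112, 160 and 126 in DB. BB replicates 1 and 4 lay on both sides of the DB libraries, and the log2 fold change was −0.00061 without BB replicate 8 (95% interval −0.39 to 0.39) and 2.59 with it (95% interval −2.62 to 7.81, limma adjusted p = 0.670). Mir219a1 had 14.0, 22.5 and 7917 in BB, against 11.0, 19.4 and 20.2 in DB, a log2 fold change of 0.12 without BB replicate 8 (95% interval −0.57 to 0.81) and of 3.03 with it. Mir152 and Mir384 had few reads, with 3.89, 8.05 and 0 in BB, against 4.57, 2.43 and 5.98 in DB for Mir152, and 1.56, 4.83 and 14.6 in BB, against 3.65, 0.810 and 2.24 in DB for Mir384, where the 14.6 stands for 1 read.

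In 3 families of short non-coding RNA genes, chosen after their values were seen, the medians lay farther from 0 than those of the lists. These genes are named by their Rfam family, and their copies are so alike that reads may be split among them, so a family counts as 1 measurement. The families RF00001, RF00003, RF00004, RF00015, RF00026 and RF00560 were examined as well. Their medians were −0.14 to 0.15 without BB replicate 8 and −1.34 to −0.44 with it. The RF00017 family, the RNA of the signal recognition particle, had 32 genes with a mean of at least 10 reads, of which 30 lay above 0 without BB replicate 8, with a median of 0.46. The summed value was 6755 and 4378 in BB replicates 1 and 4, against 4199, 2916 and 4218 in DB, so BB replicate 4 exceeded the highest DB library only slightly, and without BB replicate 1 the median was 0.22. BB replicate 8 had 145958, and with it the median was 0.42. The RF00100 family, 7SK RNA, which holds back the elongation factor P-TEFb, had 109 of 148 genes above 0 with a median of 0.31 without BB replicate 8. Its summed value was 4119 and 3864 in BB replicates 1 and 4, against 3054, 3020 and 3435 in DB, and 2195 in BB replicate 8, and with that library the median was −0.77. The RF00002 family, 5.8S ribosomal RNA, had 3 of 19 genes above 0 with a median of −0.39 without BB replicate 8, where its summed value was 552 and 520 in BB, against 590, 742 and 732 in DB. BB replicate 8 had 119895 for that family and turned the median to 2.27. Without BB replicate 8, leaving out any further library or using another scaling left the medians at 0.22 to 0.70 for RF00017, 0.27 to 0.41 for RF00100 and −0.41 to −0.25 for RF00002.

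**Figure D5:**
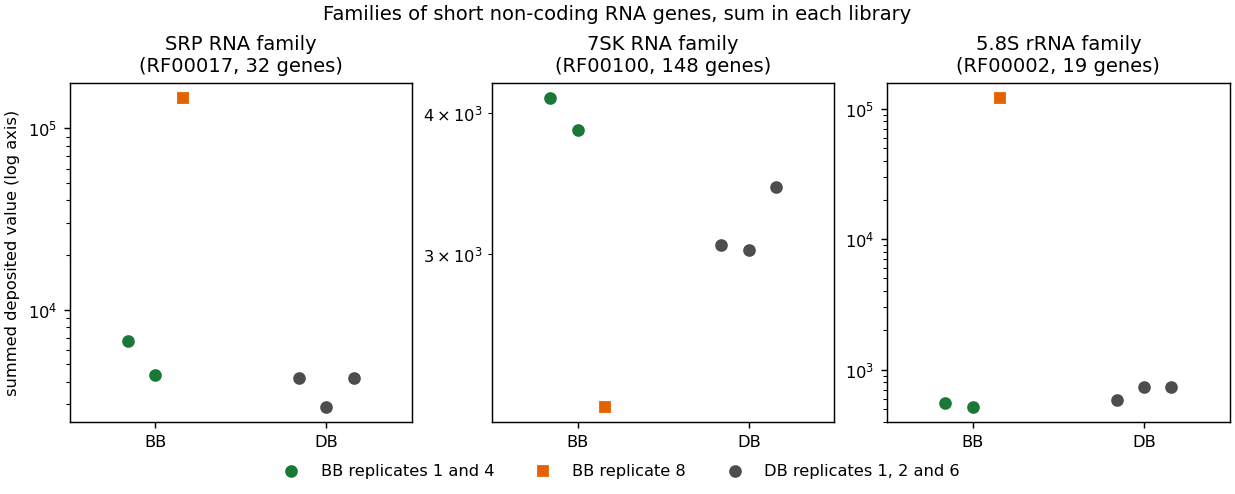
Summed deposited value of the genes of 3 Rfam families in each BB library (left) and each DB library (right), on log axes that differ between families. BB replicate 8 lies above all libraries for SRP RNA and 5.8S rRNA and below all for 7SK RNA, where BB replicates 1 and 4 lie above DB.

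The genes with the highest values in BB replicate 8 beside the other libraries show how far that library sets the comparison of 3 against 3. AABR07015057.1 had 1215, 1216 and 25708507 in BB, against 1006, 867 and 1236 in DB, and took 14.3% of the summed reads of BB replicate 8. Ruvbl2, an AAA-type ATPase that assembles chromatin remodellers, had 118, 132 and 1474810 in BB, against 116, 133 and 123 in DB. Its log2 fold change was 0.01 without BB replicate 8 and 4.52 with it (95% interval −4.47 to 13.50, limma adjusted p = 0.670). At the other end, Cops9, a subunit of the COP9 signalosome, had 983 and 821 in BB replicates 1 and 4 and no reads in BB replicate 8, against 1015, 956 and 878 in DB. Its log2 fold change was −0.08 without BB replicate 8 (95% interval −0.34 to 0.18) and −3.35 with it (95% interval −9.87 to 3.17, limma adjusted p = 0.670). Of the 5 genes that BB replicate 8 raised most, the other 3 had BB replicates 1 and 4 above all DB libraries, as had 9.07% of all genes. For example, AABR07015078.2 had 603 and 643 in BB, against 434, 376 and 598 in DB. These 3 genes had similar values in each library and may count the same reads, so they are uncertain as 3 genes. Of the 5 genes that BB replicate 8 lowered most, Lrrc69 also had BB replicates 1 and 4 above DB, with 667 and 716, against 542, 616 and 607 (log2 fold change 0.23, limma adjusted p = 0.999). The other 4 overlapped DB.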

How the data were processed

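RNA of tissue labelled as adipose was extracted and sequenced by the study, and the authors deposited 1 table per group with a normalized signal per gene and library. Each signal is a number of reads scaled by a factor common to the whole library, and 100% of the values gave whole reads within 0.1 reads once it was undone. The columns share group and rat numbers with the sample titles but end in H rather than TA, so they were matched by these numbers alone and the tissue they hold is uncertain. Aligner, counter, annotation and strand setting were not given in the sources used here, and the submitters' notes on processing name GRCm38 and mm10, which are mouse builds, for a table of rat gene names. Tables were joined on gene name, and 25 names are dates.

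BB and DB libraries were compared with limma 3.58.1 (R 4.3.3, trend, two-sided) on log2(value + 1) over genes whose mean reached 1 in either group, with no covariates and Benjamini-Hochberg adjustment at 0.05. Fold changes on this scale understate the change of low genes. The fit was run with all 6 libraries and without BB replicate 8. Alternatives were edgeR 4.0.16, DESeq2 1.42.0 and limma-voom on the recovered reads, other scalings, filters and pseudocounts, library weights and leaving out each library. Scripts were tested on simulated data. Genes named are those called, the 10 with the smallest p in each direction without BB replicate 8 (mean of at least 10 reads), core members and the smallest p of each list, the 5 most raised and 5 most lowered by BB replicate 8 (mean of at least 50 reads), and miRNA genes named by the study or among the 3 smallest p in each direction, and the text gives part of them. The members and lists were chosen with earlier results of these data known, and of 368 list genes 349 were matched. Any other gene was picked with its values in view.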

Additional observations from a re-analysis of the deposited data

How the results depend on the processing

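With 6 libraries, the count of 0 called genes held under every alternative run except the one without BB replicate 8, which gave 5. The other tools gave 0 calls with 1618 (edgeR), 1140 (DESeq2) and 1072 (limma-voom) genes under the unadjusted threshold, and library weights, which set BB replicate 8 at 0.0148 and the others at 2.03 to 2.82, gave 0 with 1593. The median log2 fold change of −0.52 was 0.92 over the 4412 genes with at least 10 reads in every library and −2.13 with total-count scaling, and the 3011 genes whose groups did not overlap became 283 and 1800. Isl2, Alb and Atg10 turned direction when BB replicate 8 was left out, to −0.87, 0.82 and −0.82, and leaving out each library in turn gave log2 fold changes of −0.87 to 3.16 for Isl2, −1.68 to 0.82 for Alb and −0.82 to 2.92 for Atg10.

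Without BB replicate 8, the 5 calls became 0 with a pseudocount of 0.1, 0 with at least 10 reads in every library, 0 in the gene by gene linear model, 0 with HE libraries in the fit, 3 with upper-quartile scaling, 57 with DESeq2 and 43 with limma-voom. Leaving out 1 more library gave 0 to 15. Where that left 1 BB library, it was assumed to vary like the DB libraries. The median of −0.00335 was 0.00630 with upper-quartile scaling and 0.0790 with total-count scaling, and leaving out 1 more library gave −0.00906 to 0.00525. Over the alternatives the adjusted p ranged over 0.000321 to 0.882 for Alb and 0.000162 to 0.928 for Isl2. No paired analysis was made, because rats were divided into the groups at random and nothing pairs a BB rat with a DB rat. Genes under 10 reads had a median half-width of the 95% interval of 1.12 without BB replicate 8, against 0.30 for genes with at least 100.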
